A study of Mus musculus with 12 samples.

Results

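NF-kB genes were followed in libraries from cells sorted as alveolar type II (ATII) cells. Markers of other cell types were also high in these libraries, as described below. The 10 genes were chosen by name, with earlier results of these data known. They were the 5 subunits Rela, Rel, Nfkb1, Relb and Nfkb2, and the 5 inhibitors and feedback regulators Nfkbia, Nfkbib, Nfkbie, Nfkbiz and Tnfaip3. All 10 were present among the 23238 gene symbols of the count files, and all 10 were among the 13054 genes that passed the filter on low counts. ATII cells, the surfactant-producing progenitors of the alveolar epithelium, were sorted as CD74+ EpCAM+ cells from mouse lungs, with 1 library per mouse and 3 mice in each of 4 groups. Con mice received PBS into the trachea, BLM mice received 4 mg/kg bleomycin, a DNA-cleaving agent used to injure lung tissue, and KO and KOBLM mice, labelled p300 knockout, received PBS and bleomycin, respectively. p300, encoded by Ep300, is a histone acetyltransferase and a transcriptional coactivator, and the knockout allele carries loxP sites around exon 9. Deletion was driven by Spc-CreERT2, a recombinase expressed from the surfactant protein C promoter and switched on by tamoxifen, so it reaches only cells with an active promoter. The labels give tamoxifen at 10 mg/kg to 8-week-old mice of every group. The study's supplement differs from the labels. Its sorting methods for the RNA libraries name mice of 8 to 10 weeks, from an inbred strain given without floxed alleles and from the p300 knockout. For sorted cells used in a qRT-PCR check of the deletion, it names vehicle or tamoxifen treatment. Whether Con and BLM mice received tamoxifen, and whether they shared the strain of the knockout mice, is therefore not settled. Con mice are named wild type in the sample titles, Con and BLM mice are both labelled negative control for the knockout, and the study calls both floxed (p300 f/f), so the sources do not settle which they were. The interval between bleomycin and cell sorting was not given for these libraries.

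NF-kB transcription factors are dimers of Rel-family subunits that are held in the cytoplasm by inhibitors of the IkB family until a signal from cytokine or pattern recognition receptors leads to the inhibitor's destruction. In the canonical branch, dimers of Rela or Rel with the product of Nfkb1 enter the nucleus, and in the slower noncanonical branch, Relb works with the product of Nfkb2. Several of the genes described here, among them Nfkbia, Nfkbie, Tnfaip3, Relb and Nfkb2, are themselves known targets of NF-kB, which makes their transcripts a commonly used readout of the pathway, and in alveolar epithelium the pathway is known for driving chemokine and acute-phase genes.

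Matches to the NF-kB consensus motif (the kB motif, 10 letters, both strands) stood close to the start of several of these genes. Windows from 250 bases before to 50 after the transcription start, taken from RefSeq (GRCm38.p6), were held for 7 of the 10 genes, and 5 of the 7 had a match: Nfkbia, Nfkbie, Rel, Nfkb2 and Tnfaip3. Over all promoters of the same length, 5.17% of 26742 genes and 4.53% of 32544 windows had a match. Rela and Nfkbib had none in their windows, and Nfkb1, Relb and Nfkbiz had no window. The 2 longer stretches below belong to the inhibitors whose levels are described at most length, and they show the match in its surroundings just before the start. They lie at chr12:55492648-55492797 on the minus strand for Nfkbia and at chr17:45555550-45555699 on the plus strand for Nfkbie, and capitals mark the match.
Nfkbia: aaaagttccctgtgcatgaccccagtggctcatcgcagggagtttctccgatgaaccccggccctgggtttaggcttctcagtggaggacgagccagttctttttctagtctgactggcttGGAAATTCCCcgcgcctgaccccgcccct
Nfkbie: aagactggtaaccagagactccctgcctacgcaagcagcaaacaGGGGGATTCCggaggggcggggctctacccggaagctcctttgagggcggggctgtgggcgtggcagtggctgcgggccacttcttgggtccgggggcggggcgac

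The match in Nfkbia lies at -29 to -20 relative to the start and that in Nfkbie at -106 to -97. Rel had a match at -92 to -82, made of overlapping matches on both strands, in a site at chr11:23771042-23771071 (minus strand). In its first window, Nfkb2 had matches at -39 to -29, again overlapping on both strands, and at -11 to -2, in sites at chr19:46304688-46304717 and chr19:46304707-46304736 (plus strand). Tnfaip3 had matches at -125 to -116 and at -12 to -3, in sites at chr10:19015516-19015545 and chr10:19015411-19015440 (minus strand). These starts are those of RefSeq. In GENCODE, Nfkb2 and Tnfaip3 start further upstream, so their sites lie inside the annotated genes. Of the 150 bases before the RefSeq start, 150 lay in annotated exons for the first window of Nfkb2 and 13 for Tnfaip3. The 30-base sites are given for comparison, with the match in capitals.
Rel: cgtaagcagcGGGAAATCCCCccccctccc
Nfkb2, first site: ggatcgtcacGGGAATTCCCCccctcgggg
Nfkb2, second site: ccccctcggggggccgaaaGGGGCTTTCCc
Tnfaip3, first site: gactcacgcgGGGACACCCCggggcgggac
Tnfaip3, second site: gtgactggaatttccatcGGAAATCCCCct
A match is a run of letters only, and no binding was measured at these sites here.

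Libraries were made with a 3′ kit that yields reads near the poly(A) tail, and levels are given as CPM, counts scaled to a common library size with TMM factors. The libraries held 7005005 to 11153154 counts and 6847 to 13838 detected genes, and the floor of 3 counts per library was worth 0.269 to 0.428 CPM of the library total (counting error only). BLM 3 stood apart. It had the fewest detected genes, its rank correlation with BLM 1 and BLM 2 was 0.473 to 0.478 where other pairs within a group reached at least 0.693, and its 10 listed pluripotency markers summed to 2029 CPM where the other libraries had 0.56 to 18.0. The main results on BLM are therefore also given without it. Sums of marker genes are CPM of the library total, without TMM factors. Markers of macrophages exceeded those of the sorted cell type in all libraries but BLM 3. The 12 ATII markers summed to 643 to 3644 CPM over the libraries, with Sftpc, which encodes surfactant protein C, at 0.55 to 612 CPM and Lpcat1 at 0 in 8 libraries, while the 17 macrophage markers summed to between 15520 and 29589 CPM in Con and between 1289 and 14223 in BLM. In the libraries labelled knockout, the macrophage sums lay between 16434 and 45258 CPM in KO and between 11936 and 27377 in KOBLM. Single macrophage markers went different ways. C1qa was at 10.7, 23.3 and 0 CPM in Con and at 950, 956 and 16.3 in BLM. It was at 8.11, 568 and 123 in KO and at 209, 67.6 and 363 in KOBLM. C1qb and C1qc were also higher in BLM 1 and BLM 2 than in every Con library. Siglecf and Ear2 were lower in every BLM library than in every Con library. The macrophage sum is therefore not a measure of macrophage content. In BLM 3, the macrophage markers Adgre1, Csf1r, Marco, Siglecf, Fcgr1 and Mertk were at 0. The others of that list were above 0 there, the highest being Chil3 (389 CPM), Ctss (253) and Mrc1 (220). Itgax, at 141 CPM, lay between BLM 1 (85.4) and BLM 2 (161). Cd74, one of the sorting markers, was the highest of the 12 ATII markers in every library, at 460 to 2247 CPM. Most of the ATII sum of BLM 3 came from Cd74 (723 CPM), Etv5 (397) and Epcam (329). Sftpd, Abca3 and Lamp3 were at 0 there, and Sftpb was at 3.59 CPM (76.9 in BLM 1 and 87.9 in BLM 2). Sftpc, at 73.7 CPM, was above BLM 1 (25.1) and BLM 2 (18.1), as was Slc34a2 at 16.7 (12.6 and 2.37). The ATII sum is therefore not a measure of ATII cell content. The 6 neutrophil markers found in the files summed to between 152 and 3820 CPM in Con, between 140.0 and 5809 in BLM, and without overlap to between 355 and 844 in KO and between 1393 and 2191 in KOBLM. Fibroblast markers (5 genes) summed to 64.3 to 424 CPM in Con and 901 to 1390 in BLM, without overlap, and to 32.5 to 411 in KO and 116 to 587 in KOBLM. Macrophages and neutrophils also use NF-kB, and the part of these cells in the results that follow was not tested. In bulk RNA, fewer cells of a type and less RNA per cell cannot be told apart. Ep300 itself was at 134, 145 and 47.6 CPM in Con, 121, 101 and 34.3 in BLM, 152, 184 and 92.7 in KO, and 177, 53.2 and 105 in KOBLM, so it was not lower in the libraries labelled knockout. Reads from the 3′ end lie outside the floxed exon, so this checks neither the deletion nor the labels.

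**Figure D1:**
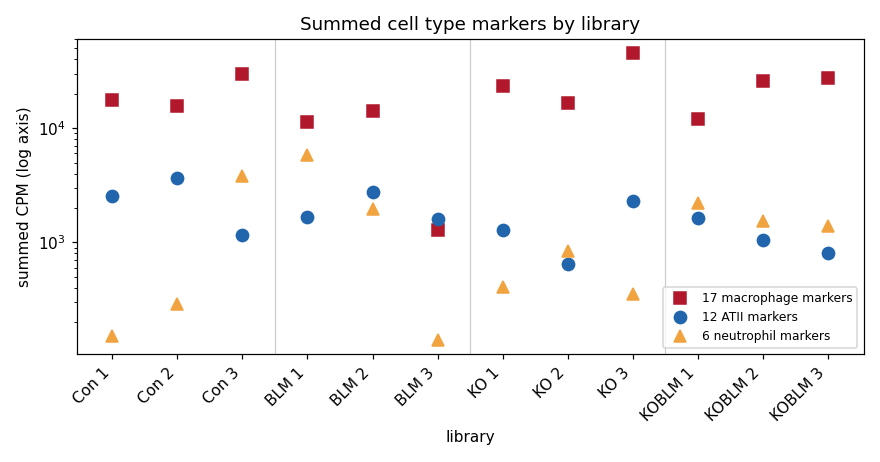
Summed level of ATII, macrophage and neutrophil markers (CPM, log axis) in each of the 12 libraries, with grey lines between groups. Macrophage markers exceeded ATII markers in 11 of the 12 libraries, and BLM 3 had the lowest macrophage sum, 1289 CPM. Cd74 was the highest ATII marker in every library.

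The subunits of the canonical branch did not differ detectably with bleomycin. Rela (chr19:5637483-5648130), which encodes the main transactivating subunit, was at 87.6, 98.3 and 100.2 CPM in Con, 122, 166 and 11.1 in BLM, 99.9, 68.0 and 146 in KO, and 120, 112 and 94.7 in KOBLM. Apart from BLM 3, these levels lay within 68.0 to 166 CPM, and each group overlapped the others. The change with bleomycin over both genotypes, taken as the mean of the BLM against Con and KOBLM against KO effects on the log2 scale, was 0.061 ± 0.54 (SE), with a 95% interval of -1.09 to 1.21 and an exact stratified permutation p of 0.895.

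Nfkb1 (chr3:135584655-135691547), whose product is cleaved to the DNA-binding partner of Rela, was at 37.4, 45.01 and 25.5 CPM in Con, 33.2, 118 and 1.30 in BLM, 69.3, 16.8 and 102 in KO, and 66.2, 12.7 and 47.2 in KOBLM. Both the highest and the lowest level fell in BLM, and the 18 counts of BLM 3 gave the lowest. Its log2 change with bleomycin over both genotypes was -0.043 ± 0.83 (SE), and its sign depended on single libraries. Rel (chr11:23736847-23770970), the subunit best known from lymphoid and myeloid cells, was at 34.4, 52.9 and 0 CPM in Con, 48.2, 53.4 and 0 in BLM, 23.5, 113.5 and 25.5 in KO, and 169, 0 and 64.6 in KOBLM. It was at 0 counts in 1 library of Con, BLM and KOBLM each, so every comparison of Rel had a wide interval (log2 change with bleomycin 0.37, -2.83 to 3.57). For these 3 subunits, the edgeR quasi-likelihood p over both genotypes was 0.807 or higher.

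Relb was the subunit whose level differed most with bleomycin. Relb (chr7:19606217-19629438, minus strand) encodes the transactivating subunit of the noncanonical branch. It was at 9.93, 7.14 and 1.76 CPM in Con and 28.3, 32.6 and 261 in BLM, and at 37.8, 2.97 and 2.66 in KO and 105, 41.7 and 56.3 in KOBLM. Every bleomycin library was above every PBS library of its own genotype, with KO 1 (37.8 CPM) closest to the lowest KOBLM library (41.7 CPM). Group means ran in the order Con (6.28 ± 4.15, SD, n = 3), KO (14.5 ± 20.2), KOBLM (67.6 ± 33.1) and BLM (107 ± 133). Con and KO overlapped, as did KOBLM and BLM, so only the step from KO to KOBLM in that order separated neighbours completely.

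Over both genotypes, the log2 change of Relb with bleomycin was 3.16 ± 0.91 (SE), an 8.92-fold difference with a 95% interval of 1.20 to 5.11 on the log2 scale. The quasi-likelihood test of edgeR gave p = 0.00375 (Benjamini-Hochberg adjusted p = 0.9998 over all tested genes), and the exact permutation test within genotypes gave 0.005, the smallest value it can give. In BLM against Con, the log2 change was 4.09 ± 1.35 (edgeR p = 0.00873, adjusted p = 0.995), and in KOBLM against KO it was 2.22 ± 1.24 (edgeR p = 0.0953, adjusted p = 1), each with an exact permutation p of 0.1, the smallest possible with 3 mice against 3. The level of 261 CPM came from BLM 3. Without that library, the log2 change was 2.25 over both genotypes and still passed, and it was 2.28 in BLM against Con, where the call was lost. KOBLM against KO passed without KO 1, the highest KO library, at 4.58.

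Nfkb2 (chr19:46304320-46312385), which encodes the partner and precursor inhibitor of Relb, was at 16.9, 29.2 and 55.7 CPM in Con and 62.6, 150 and 65.6 in BLM, and at 41.4, 12.8 and 41.9 in KO and 82.3, 0.378 and 49.8 in KOBLM. The BLM libraries were all above the Con libraries, by a small margin between the nearest levels of 55.7 and 62.6 CPM. In the knockout background the groups overlapped, since KOBLM 2 held 4 counts while the other KOBLM libraries were above all KO libraries. The log2 change with bleomycin was 1.45 ± 1.21 in BLM against Con, 0.46 ± 1.19 in KOBLM against KO and 0.95 ± 0.85 (SE) over both, and none passed the threshold.

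Among the IkB inhibitors, Nfkbia passed the threshold over both genotypes, while Nfkbie did not but was uniformly high in KOBLM. Nfkbia (chr12:55489410-55492647) encodes IkB-alpha, the classical inhibitor that is degraded on activation and resynthesized within the feedback loop. It was at 669, 1055 and 1528 CPM in Con, 5509, 2585 and 394 in BLM, 990.3, 3135 and 675 in KO, and 6293, 1164 and 3605 in KOBLM. The highest library was a bleomycin library in each genotype, but BLM 3 was below all Con libraries and KOBLM 2 lay within the KO range, so the groups overlapped. Over both genotypes, the log2 change was 1.29 ± 0.59 (SE), or 2.45-fold (95% interval 0.036 to 2.55 on the log2 scale). The edgeR p was 0.0446 (adjusted p = 0.9998), while the exact stratified permutation test on CPM gave 0.12. Without BLM 3 the change was 1.55 and passed. Leaving out any 1 of 7 libraries ended the call: Con 1 (1.17), Con 2 (1.28), BLM 1 (0.83), KO 1 (1.17), KO 3 (1.11), KOBLM 1 (0.97) or KOBLM 3 (1.30). The separate changes were 1.39 ± 0.83 (SE) in BLM against Con and 1.20 ± 0.83 in KOBLM against KO. Neither passed with all libraries, and each did without 1 of them, at 1.90 without BLM 3 and at 2.11 without KO 2.

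Nfkbie (chr17:45555703-45563169) encodes IkB-epsilon, an inhibitor that is induced later than IkB-alpha. It was at 24.1, 10.5 and 1.93 CPM in Con, 48.6, 35.5 and 0.144 (2 counts) in BLM, 10.7, 21.9 and 0 in KO, and 85.0, 71.6 and 81.8 in KOBLM. The 3 KOBLM libraries were above all other 9 libraries, with a mean of 79.5 ± 7.02 CPM (SD, n = 3), the smallest spread relative to its mean of the 4 groups for this gene. Group means followed the order KO (10.9 ± 10.96), Con (12.2 ± 11.2), BLM (28.1 ± 25.1) and KOBLM, of which the first 3 overlapped one another. The log2 change in KOBLM against KO was 2.87 ± 1.83 (SE), a 7.32-fold difference with p = 0.138 by edgeR and 0.1 by the exact permutation test. In BLM against Con it was 1.21 ± 1.73, and over both genotypes it was 2.04 ± 1.25, with p = 0.125 by edgeR (adjusted p = 0.9998) and 0.02 by the exact stratified permutation test on CPM. Without BLM 3, the change over both genotypes was 2.33 and passed the threshold.

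Nfkbib (chr7:28758251-28767512), which encodes IkB-beta, an inhibitor that is not part of the fast feedback loop, was at 92.7, 152 and 108 CPM in Con, 147, 236 and 100.2 in BLM, 201, 52.2 and 90.8 in KO, and 157, 116 and 147 in KOBLM. All 4 groups overlapped. The log2 change over both genotypes was 0.37 ± 0.43 (SE, 95% interval -0.54 to 1.28). Its interval was the narrowest of the 10 genes.

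Nfkbiz (chr16:55811375-55838899), which encodes the atypical nuclear protein IkB-zeta, a coactivator of a subset of inflammatory genes, was at 50.03, 36.9 and 114 CPM in Con, 377, 270.3 and 40.7 in BLM, 36.7, 173 and 69.4 in KO, and 455, 88.6 and 269 in KOBLM. BLM 1 and BLM 2 were above all Con libraries and BLM 3 was within them. In the knockout background KOBLM 2 was within the KO range. The log2 change over both genotypes was 1.66 ± 0.61 (SE), or 3.16-fold, with p = 0.0167 by edgeR (adjusted p = 0.9998) and 0.045 by the exact stratified permutation test. The separate changes were 1.77 ± 0.87 in BLM against Con (edgeR p = 0.0601, exact permutation p = 0.3) and 1.54 ± 0.86 in KOBLM against KO (edgeR p = 0.0947, exact permutation p = 0.2). BLM against Con passed the threshold without Con 3 (2.40) or BLM 3 (2.27), and KOBLM against KO passed without KO 2 (2.31) or KOBLM 2 (1.96). Without KOBLM 1, the call over both genotypes was lost at 1.34.

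Tnfaip3 (chr10:19000910-19015657) encodes a ubiquitin-editing enzyme that ends signalling upstream of the IkB kinases. It was at 74.0, 36.1 and 28.2 CPM in Con, 183, 99.7 and 15.1 in BLM, 70.9, 137 and 2.497 in KO, and 151, 0 and 127 in KOBLM. In each bleomycin group, 1 library was below every PBS library of its genotype, BLM 3 and KOBLM 2, and the other bleomycin libraries were above all PBS libraries of their own genotype except KOBLM 3, which was below KO 2. The log2 change over both genotypes was 0.75 ± 1.11 (SE) and did not pass the threshold (exact stratified permutation p = 0.335). Nfkbia, Nfkbiz and Tnfaip3 thus shared the libraries with low levels after bleomycin, and these 2 libraries also had the fewest detected genes in their groups, 6847 in BLM 3 and 9018 in KOBLM 2. The part of that difference in the results was not tested.

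**Figure D2:**
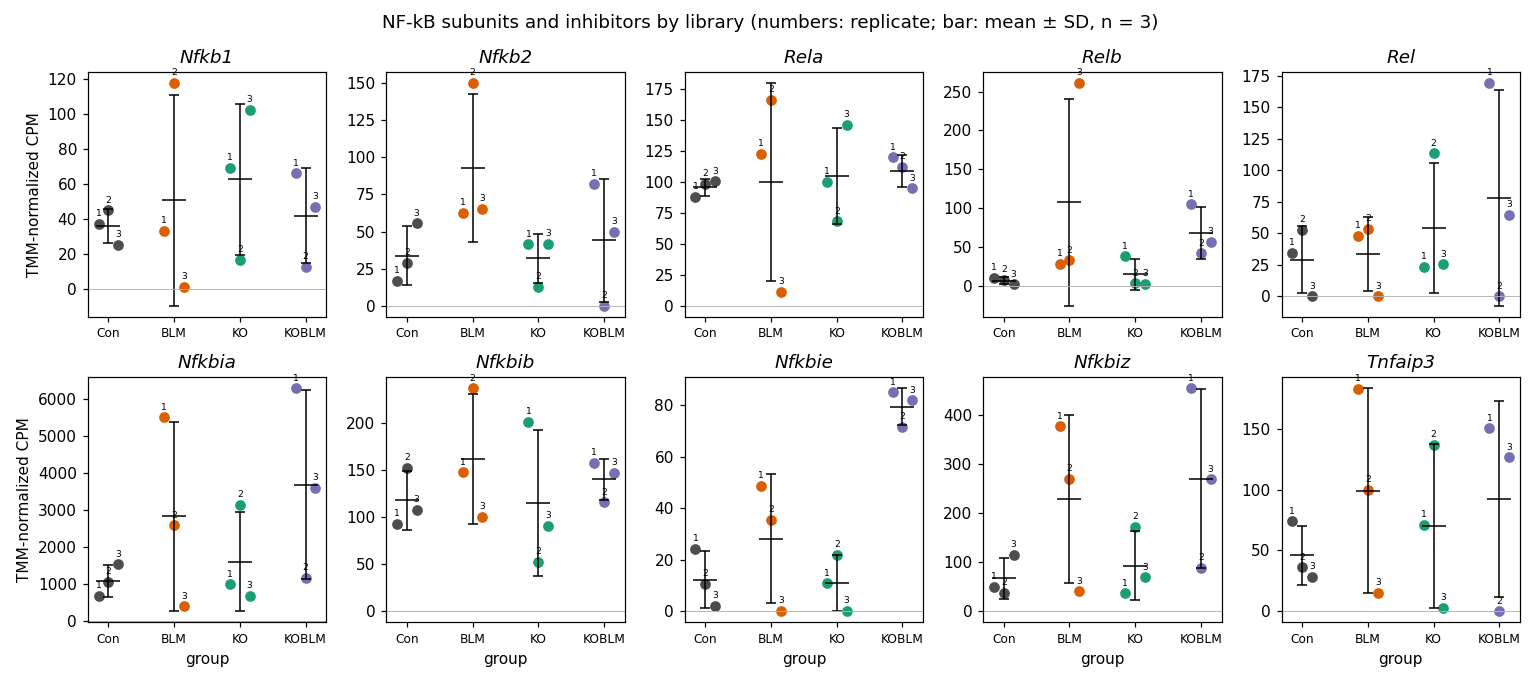
Level of each of the 10 genes (TMM-normalized CPM) in every library, by group, with the replicate number beside each point and bars for the mean ± SD (n = 3). Relb was higher in every bleomycin library than in the PBS libraries of the same genotype, and the 3 KOBLM libraries of Nfkbie clustered at 71.6 to 85.0 CPM.

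The comparisons of bleomycin with PBS asked which of these genes differed after lung injury, in libraries labelled control and in those labelled p300 knockout. A gene passed the threshold at a fold over 1.5 and an unadjusted edgeR p under 0.05, the cut-offs the study states. Over both genotypes, 3 of the 10 genes passed, Relb, Nfkbiz and Nfkbia, all higher with bleomycin, beside 4.47% of all 13054 tested genes in either direction and 2.72% higher. The change was above 0 for 9 of the 10 genes, beside 51.3% of all genes, with a median log2 change of 0.85 beside 0.030. In BLM against Con, 1 gene passed, Relb (4.27% of all genes, 2.19% higher), and all 10 changes were above 0 (47.3% of all genes). Both Relb and Nfkb2 were higher without overlap, as were 5.81% of all genes.

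In KOBLM against KO, 0 of the 10 passed by edgeR, by the unadjusted p and also by the adjusted p, and 0 by DESeq2, beside 1.69% of all genes by edgeR. Relb and Nfkbie were higher without overlap (3.85% of all genes), and 9 of the 10 changes were above 0 (53.8% of all genes), with a median of 0.49. Relb was the only one of the 10 genes that was higher without overlap in both genotypes, as were 37 of all tested genes, 0.283%. With the adjusted p, no gene of the whole table passed in any comparison by edgeR, the smallest adjusted p being 0.9002. The biological coefficient of variation between libraries, 1 per mouse, was 1.44 (edgeR's common dispersion of 2.08). Each SE and interval was worked back from the log2 change and the F value of its edgeR test, so the widths differed between genes.

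**Figure D3:**
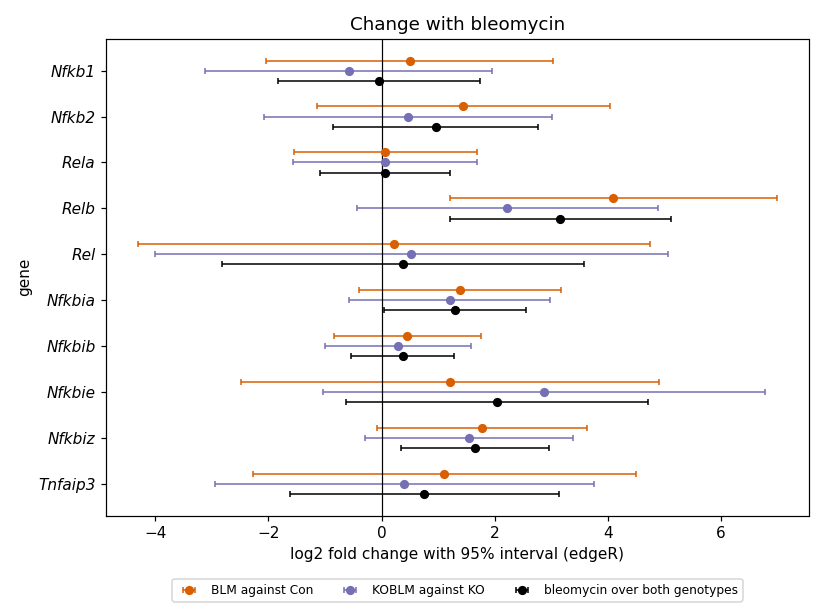
Log2 fold change of each gene with bleomycin (points) and 95% interval (lines) by edgeR, in BLM against Con, in KOBLM against KO and over both genotypes. The intervals of Relb, Nfkbia and Nfkbiz over both genotypes lay above 0, and those of the other 7 genes crossed it.

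The comparisons of genotype set libraries labelled p300 knockout against controls, after PBS and after bleomycin. They cannot show whether these transcripts depended on p300. The reads of these libraries do not check the deletion, which reaches only cells with an active surfactant protein C promoter. Macrophage markers exceeded ATII markers in most of the libraries. The part of a possible difference in tamoxifen or strain between the genotypes was not tested. In KO against Con, 0 of the 10 genes passed by edgeR (0 by DESeq2, and 0 at an unadjusted p under 0.05 without the fold), beside 1.44% of all genes. The log2 changes ran from -0.16 for Nfkbie to 1.21 for Relb, whose KO mean rested on KO 1 (37.8 CPM, where KO 2 and KO 3 were at 2.97 and 2.66), and 7 of 10 were above 0, beside 44.9% of all genes. In KOBLM against BLM, again 0 passed by either tool, beside 3.16% of all genes, and the log2 changes ran from -1.07 ± 1.20 (SE) for Nfkb2 to 1.5 ± 1.74 for Nfkbie. Nfkbie was the single gene of the 10 that did not overlap, higher in KOBLM than in BLM (exact permutation p = 0.1), as were 6.14% of all genes. Several of these changes rested on BLM 3. Without it, the change of Nfkbie was 0.92 ± 1.47 (SE) and that of Relb was 1.15 ± 1.25, where it was -0.67 with all libraries, and 0 of the 10 genes passed.

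Over both treatments, 0 of the 10 genes passed in the comparison of genotypes, beside 2.90% of all genes. The intervals remained wide. The change of Relb was 0.27 (95% interval -1.53 to 2.07, and 1.18 without BLM 3) and that of Nfkbia was 0.47 (-0.77 to 1.71), and a fold of 2 (a log2 change of 1) in either direction lay within the interval of Relb. Rela at 0.13 (-1.02 to 1.28) and Nfkbib at -0.12 (-1.03 to 0.79) had the narrower intervals. The interaction, which tests whether the bleomycin effect differed between genotypes, gave 0 passing genes of 10, beside 2.82% of all genes. The interaction of Relb was -1.87 ± 1.70 and that of Nfkbie was 1.66 ± 2.42 (SE), each with an adjusted p of 0.9999 by edgeR, so a larger response of either gene in either genotype was not shown. Without BLM 3, the interaction of Relb was -0.057 ± 1.57 and that of Nfkbie was 1.08 ± 1.94 (SE). Without KO 1, that of Relb was 0.49 ± 1.58, so its sign depended on single libraries. These values do not show that the genotypes acted alike.

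**Figure D4:**
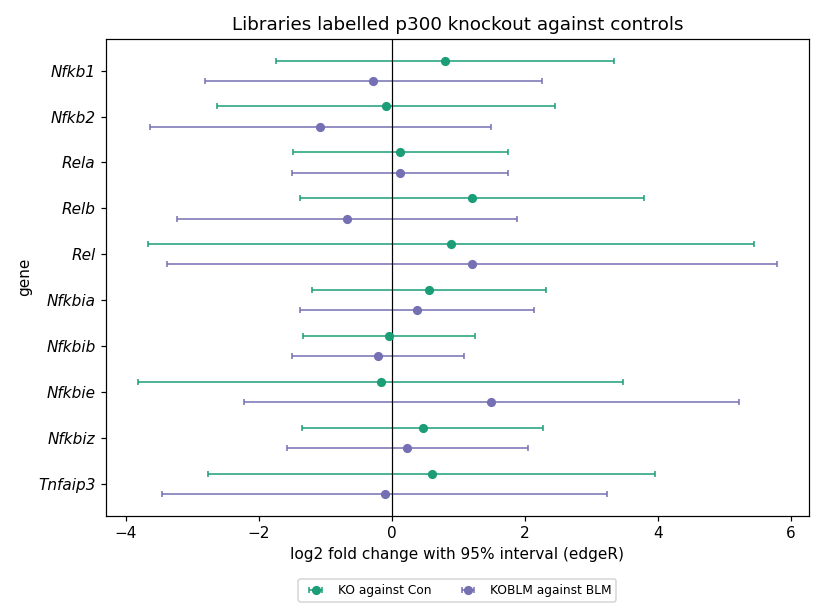
Log2 fold change of each gene between libraries labelled p300 knockout and controls (points) with 95% intervals (lines) by edgeR, after PBS and after bleomycin. All intervals crossed 0. The change of Nfkbie after bleomycin, 1.5, was 0.92 without BLM 3.

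The genes around these 10 in the pathway were described from 4 lists. Like the 10 genes, the lists were chosen with earlier results of these data known, so their counts beside all genes are descriptions only. Upstream, 0 of 18 receptors and adaptors and 0 of 9 kinases passed over both genotypes by edgeR, beside 4.47% of all genes. In lists this short, that share amounts to few or no genes. Their median log2 changes were -0.054 and 0.18. Of 14 other inhibitors and regulators, 1 passed, higher, beside 2.72% of all genes. It was Bcl3, an IkB-family protein that works in the nucleus with the products of Nfkb1 and Nfkb2. Bcl3 was at 7.38, 5.63 and 11.5 CPM in Con, 61.8, 99.0 and 8.23 in BLM, 0.212, 22.6 and 0.916 in KO, and 59.9, 6.04 and 61.7 in KOBLM. As for Nfkbiz, the low libraries after bleomycin were BLM 3 and KOBLM 2. The log2 change of Bcl3 was 2.61 (edgeR p = 0.0354, exact stratified permutation p = 0.03), and the call was lost without any 1 of Con 1, Con 2, BLM 1, BLM 2, KO 1, KO 3, KOBLM 1 or KOBLM 3, where it ran from 2.26 to 2.57. In BLM against Con and in KOBLM against KO taken alone, 0 of the genes of these 3 lists passed by edgeR. The shares of all genes were 4.27% and 1.69%.

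Downstream, 10 of 23 tested target genes passed over both genotypes, 9 higher (Il6, Vcam1, Saa3, Lcn2, Il1b, Cxcl2, Ier3, Bcl2l1 and Sod2, beside 2.72% of all genes) and 1 lower (Tnfaip2, beside 1.75%), with a median log2 change of 1.62 beside 0.030 over all genes. Il6 was at 0 counts in every Con library. Its counts were 18, 64 and 0 in BLM, 3, 0 and 0 in KO, and 140, 0 and 0 in KOBLM. The fitted change of Il6 over a group at 0 gives no bound. With 1 library left out, between 3 (without KOBLM 1) and 12 (without BLM 3) of the targets passed, beside 3.79% and 7.16% of all genes in either direction. In BLM against Con, 5 of the 23 passed, 4 of them higher and 1 lower (2.08% of all genes were lower), and in KOBLM against KO, 1 did, higher, beside 1.16% of all genes. Many of these targets are also expressed by macrophages and neutrophils. Saa3, which encodes an acute-phase protein, was at 0, 2.92 and 8.97 CPM in Con, 732, 258 and 10.5 in BLM, 4.35, 42.5 and 0 in KO, and 124, 6.89 and 90.8 in KOBLM. Every BLM library was above every Con library, with BLM 3 close to Con 3. Its log2 change was 6.38 in BLM against Con (edgeR p = 0.0114) and 4.32 over both genotypes (edgeR p = 0.0083, exact stratified permutation p = 0.025).

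Il1b, which encodes the cytokine interleukin-1 beta, was at 40.7, 68.0 and 208 CPM in Con, 1588, 490.1 and 43.3 in BLM, 55.1, 232 and 133 in KO, and 539, 445 and 419 in KOBLM. It separated KOBLM from KO completely and overlapped between BLM and Con because of BLM 3. Its log2 change over both genotypes was 2.24 (edgeR p = 0.00511, exact stratified permutation p = 0.015). In BLM against Con it was 2.74 (edgeR p = 0.0139, exact permutation p = 0.3), and the call was lost without BLM 1, at 1.34, and in a fit of the Con and BLM libraries alone, at 2.73. Cxcl2, a neutrophil chemokine gene, was at 879, 556 and 629 CPM in Con, 11932, 6024 and 37.1 in BLM, 1837, 2976 and 296 in KO, and 3824, 497 and 4064 in KOBLM, with a log2 change of 3.12 in BLM against Con (edgeR p = 0.0283, exact permutation p = 0.4). That call was lost without Con 2 (2.99), Con 3 (3.06) or BLM 1 (2.14), and in the fit of those groups alone (3.11).

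Tnfaip2, a gene first described as induced by TNF, was the only target that passed with a lower level over both genotypes, at -0.94 (exact stratified permutation p = 0.075), and the call was lost without any 1 of Con 1, Con 2, KO 1, KO 3, KOBLM 1 or KOBLM 3, where it ran from -0.93 to -0.85. The changes of Cd83 (-0.69) and Cflar (-0.040) were also below 0 and did not pass. Tnfaip2 was at 1802, 1508 and 1150 CPM in Con, 606, 556 and 101 in BLM, 1637, 824 and 1689 in KO, and 1008, 1959 and 1037 in KOBLM. All BLM libraries were below all Con libraries and below all KOBLM libraries, while KO and KOBLM overlapped. Over all genes, 10.2% were lower without overlap in BLM than in Con. Its log2 change was -1.82 in BLM against Con (edgeR p = 0.00878) and 1.67 in KOBLM against BLM (edgeR p = 0.0144), each with an exact permutation p of 0.1. In the latter comparison the call was lost without KOBLM 2, at 1.28, and with only the 2 libraries per group with the most genes detected, at 0.85. The interaction was 1.77 with an edgeR p of 0.0508 and did not pass the threshold.

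Few of the targets passed between genotypes. In KO against Con, 1 of 23 passed, lower, beside 0.904% of all genes. It was Vcam1, an adhesion molecule gene. Over both treatments 2 passed, Vcam1 and Nos2, which encodes a nitric oxide synthase, both lower, beside 1.95% of all genes. In KOBLM against BLM, 1 passed, Tnfaip2, higher, beside 1.39% of all genes. Vcam1 was at 0 counts in the 3 KO libraries, at 0, 7.68 and 41.8 CPM in Con, at 15.9, 10.3 and 0 in BLM, and at 38.8, 21.0 and 5.46 in KOBLM. The exact permutation p of Vcam1 was 0.4 in KO against Con and 0.86 over both treatments. Its call over both treatments was lost without any 1 of Con 3, BLM 1, the KO libraries or the KOBLM libraries, where the log2 change ran from -4.81 to -3.40, and over both genotypes it was lost without Con 2 (4.69) or KOBLM 1 (4.51), with an exact stratified permutation p of 0.47. Against the floor of 3 counts per library, with a mean of 0.354 TMM-scaled CPM over the KO libraries, its mean was at least 61.4-fold higher in KOBLM than in KO (at least 37.3-fold without KOBLM 1). It was at least 46.6-fold lower in KO than in Con, where 1 library was also at 0, and at least 10.8-fold lower without Con 3. These bounds on the measured means allow for counting error only and not for the spread between libraries. Endothelial markers (5 genes) summed to 350 to 702 CPM in Con and 44.2 to 340 in KO, without overlap, and to 154 to 471 in BLM and 202 to 1296 in KOBLM, and their part in the levels of Vcam1 was not tested. Nos2 was at 7.26 CPM or lower in every library, and at 0 in the 3 KO libraries and in 4 others. Fitted changes of both genes over a group at 0 depend on the fit and give no bound.

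**Figure D5:**
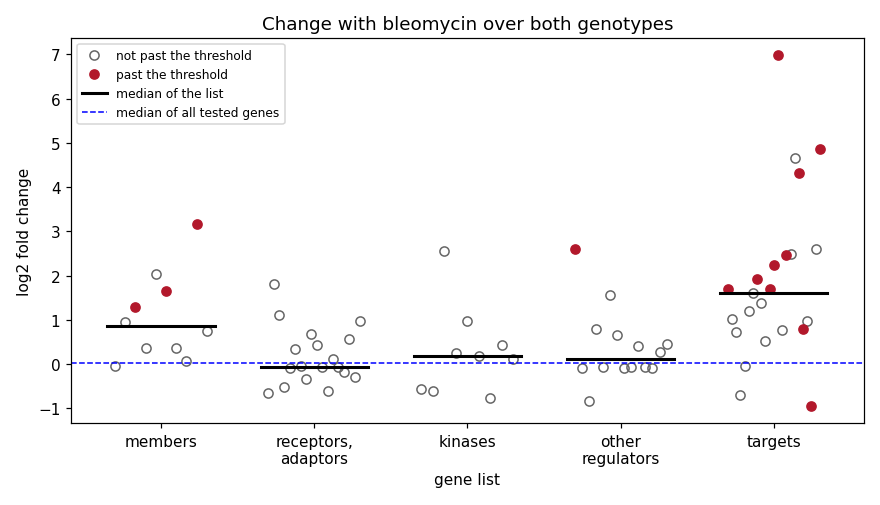
Log2 fold change with bleomycin over both genotypes for the 10 genes and for 4 lists around them, where each circle is a gene, filled circles passed the threshold, black lines mark list medians and the dashed line marks the median of all tested genes, 0.030. The median was 0.85 for the 10 genes and 1.62 for the targets, and the medians of the receptors and of the kinases lay near 0, with single genes further off.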

How the data were processed

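RNA from sorted CD74+ EpCAM+ cells of 12 mice (3 per group, 1 library per mouse) was sequenced with a 3′ mRNA kit, which reads the transcript end, so counts do not scale with gene length. The authors deposited raw counts per gene symbol for each library, without normalization. The submitters' processing notes name Bowtie2, edgeR and mm10 without versions. The counting program and annotation are not given in the sources used here, and neither is whether strand was used in counting. Groups and replicate numbers came from the sample labels. Counts of 35 symbols listed more than once were summed.

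Low-count genes were removed by filterByExpr (edgeR 4.0.16, minimum count 10, minimum total 15), and the rest were scaled by TMM (factors 0.835 to 1.26) and fitted with the quasi-likelihood model of the 4 groups in R 4.3.3. Fits used the whole table, and p-values were adjusted by Benjamini-Hochberg over 13054 genes. These p-values set a difference against the spread between libraries, 1 per mouse. That spread holds differences of sorting and library preparation as well as those between mice. A gene passed at a fold over 1.5 and an unadjusted p under 0.05. CPM were also compared with exact two-sided permutation tests, over both genotypes or treatments within strata. With 3 mice against 3, p cannot go below 0.1, and within strata not below 0.005. The edgeR steps were tested on simulated data.

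All 10 genes are named, with up to 3 passing genes of the pathway lists per comparison and direction with a mean of at least 5 CPM. The other targets that passed are listed by name as a full count. The 10 genes and the lists were chosen with earlier results of these data known. Alternatives were DESeq2 1.42.0, its size factors, library size alone, totals without Rn45s (the ribosomal RNA precursor, 2.04% to 21.6% of counts), no filter, a replicate block, an adjusted p, each library left out and fits of the compared groups alone. Within groups, each pair of libraries differed beyond counting noise (3 Poisson SD) in 60.8% to 87.6% of genes, so none was a duplicate. Promoters came from RefSeq on GRCm38.p6 and gene positions from GENCODE M21 on GRCm38, the assembly also called mm10. Python 3.11.15 with pandas 2.3.3, numpy 2.4.6 and matplotlib 3.10.9 was used for sequences and figures.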

Additional observations from a re-analysis of the deposited data

Results flagged for a closer look

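The response of Vcam1 to bleomycin differed between the genotypes in the interaction test, by 11.55 on the log2 scale (SE 4.09). It passed the threshold on the unadjusted p of edgeR's quasi-likelihood test, and its Benjamini-Hochberg adjusted p was 0.9999. Its counts were 0, 71 and 475 in Con, 109, 70 and 0 in BLM, 0, 0 and 0 in KO, and 277, 222 and 45 in KOBLM. It was higher in 3 of 3 KOBLM libraries than in the KO libraries, and 1 library each of Con and BLM was also at 0. The size of the fitted difference depends on the group at 0 and gives no bound, and without Con 3 it was 9.43.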

How the results depend on the processing

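Of the 10 genes, Relb passed over both genotypes under the 7 alternatives other than an adjusted p and in all 12 fits with a library left out (log2 change 2.25 to 4.34). Nfkbiz passed under 7 of 7 and in 11 of 12 (1.34 to 2.03), and Nfkbia under 6 of 7 and in 5 of 12 (0.83 to 1.74). The causes of the differences below were not tested. Counts of the 10 genes over both genotypes (main 3), in BLM against Con (1) and in KOBLM against KO (0) became 0, 0 and 0 with an adjusted p under 0.05. Without the low-count filter, BLM against Con gave 3 (beside 4.41% of all genes) and KOBLM against KO gave 1 (1.47%), and DESeq2 gave 2 in BLM against Con (7.25%). With each library left out in turn the counts were 1 to 4, 1 to 2 and 0 to 2, respectively. The shares of all genes were 3.46% to 7.16%, 2.08% to 5.45% and 0.741% to 2.88% in these fits. With only the 2 libraries per group with the most genes detected, an alternative chosen after seeing the data, they were 6, 4 and 2, beside 10.3%, 9.9% and 4.18% of all genes. The signs of small changes over both genotypes reversed. Nfkb1 (main -0.043) was at 0.62 in those libraries and at -0.82 to 0.24 with a library left out, Rela (0.061) was at -0.030 with library size alone and at -0.23 to 0.33 with a library left out, and Rel (0.37) was at -0.27 to 0.91. No count of the 10 genes differed from 0 in a comparison of genotypes or the interaction under any alternative.

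Same-numbered libraries of different groups did not deviate together over all tested genes (correlations of -0.117 to 0.096). No pairing by replicate number was seen, but this check could miss a weak pairing or one limited to some genes. With the replicate block, 1 of the 10 genes passed in KOBLM against KO (beside 0.766% of all genes), 1 pathway gene in BLM against Con (3.02%), 7 over both genotypes (6 of them targets, 2.76%) and 0 over both treatments (1.68%), and Rela was at -0.039. Calls lost there were those of Saa3 (5.97), Cxcl2 (2.61) and Il1b (2.64) in BLM against Con, and of Vcam1 over both genotypes (4.56) and over both treatments (-4.58). Nfkbia lost its call at 1.11 and Nfkbie gained one at 2.84.

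Pathway genes over all 4 lists numbered 5 in BLM against Con, 1 in KOBLM against KO, 11 over both genotypes, 1 in KO against Con, 1 in KOBLM against BLM, 2 over both treatments and 1 in the interaction. An adjusted p gave 0 in each of these, among the targets over both genotypes and among the other inhibitors and regulators. With the 2 libraries per group, the numbers were 17, 6, 23, 9, 3, 7 and 9, beside 9.9%, 4.18%, 10.3%, 4.28%, 5.72%, 6.16% and 6.22% of all genes, with 20 targets and 3 other inhibitors and regulators over both genotypes, and the call of Vcam1 over both treatments was lost at -3.54. With a library left out they were 2 to 10, 1 to 5, 3 to 14, 1 to 2, 0 to 2, 0 to 5 and 1 to 4. In the same order, the shares of all genes were 2.08% to 5.45%, 0.741% to 2.88%, 3.46% to 7.16%, 0.627% to 3.2%, 1.67% to 3.34%, 2.59% to 4.97% and 2.36% to 4.82%. Over both genotypes, these fits gave 3 to 12 targets and 0 to 1 in each of the other 3 lists. DESeq2 gave 11 in BLM against Con (7.25%), 3 in KO against Con (2.87%) and 4 in the interaction (4.79%). Fits of only the groups compared gave 3 in BLM against Con (3.28%), 4 in KOBLM against KO (1.25%) and 0 in KO against Con (2.04%). Without the filter, KOBLM against KO gave 2 (1.47%) and the interaction 4 (4.04%). In the interaction, DESeq2 size factors (3.12%), library size alone (3.23%) and totals without Rn45s (2.94%) gave 2 each.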

Other observations

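For 4 of the genes, the transcripts with the most similar levels over the 12 libraries were sought among 8902 tested genes with a mean of at least 10 CPM, by Pearson's r on log2 CPM. These are descriptions over libraries that share depth, complexity and cell makeup. For Nfkbia they were Plac8 (r = 0.911, 0.896 without BLM 3), Apoc2 (0.901, 0.895) and Pla2g7 (0.899, 0.882). For Tnfaip3 they were Med15 (0.961, 0.962), Arid4b (0.951, 0.95) and Tfe3 (0.944, 0.971). For Rela they were Stk24 (0.98, 0.927), Ap1m1 (0.979, 0.799) and Naa60 (0.976, 0.765), and for Nfkb1 they were Tap2 (0.96, 0.871), Fam199x (0.94, 0.806) and Gatc (0.936, 0.872). The values for Rela and Nfkb1 were lower without BLM 3, which had the lowest levels of both genes. By Spearman's rho in place of r, the ranks were 4, 122 and 21 for Plac8, Apoc2 and Pla2g7, 237, 573 and 194 for Med15, Arid4b and Tfe3, 3, 36 and 52 for Stk24, Ap1m1 and Naa60, and 6, 32 and 4 for Tap2, Fam199x and Gatc.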
